A study of Mus musculus with 24 samples.

Results

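Sodium pump subunits and ion cotransporters comprised 7 of the 49671 genes in the deposited count table. They were the β subunits Atp1b1, Atp1b2 and Atp1b3, the pump regulators Fxyd1 and Fxyd7, and the cotransporters Slc4a4 and Slc12a2, taken by name and matched by Ensembl identifier to the Gencode mouse annotation. All 7 were found, and all 7 were among the 19691 genes left after genes with few counts were removed. Fxyd7 passed only through the 4 groups of primary cells, since it was at or near 0 counts in the other groups.

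The 24 RNA-seq libraries came from 6 groups with 4 replicates each. NSC were neural stem cells derived from 1 line of murine embryonic stem cells (GSC-5003, from C57BL/6N mice), kept in EGF and FGF at 20 ng/ml each and used at passages 50 to 60. AGES were astrocytes generated from these NSCs with BMP4 at 20 ng/ml over 3 to 5 days. Their medium is described without EGF and FGF, and they grew on poly-ornithine and laminin, while NSC grew on gelatin. In AGES against NSC, BMP4, the loss of EGF and FGF and the coating therefore cannot be told apart. The 4 groups of primary astrocytes came from C57BL/6J mice without a genetic change, aged 4 to 8 days (neoAC) or 100 to 140 days (AdAC), and each replicate was an isolation from 2 pooled mice. Neonatal and adult brains were dissociated with different kits and the parts of the brain taken differed, so the effect of age cannot be told apart from these steps. For adult brains, the study names the removal of olfactory bulb and cerebellum for direct isolation only. The parts taken may therefore also differ between directly isolated and cultured adult cells. Primary cells were either snap-frozen after isolation (direct) or cultured for 7 to 10 days (CellC), in the same medium at both ages, which was not that of AGES. All 4 primary groups were selected with beads against ACSA-2, the antigen encoded by Atp1b2. AGES and NSC were not selected in this way, so in comparisons of AGES or NSC with primary cells this selection, the substrain and the origin of the cells cannot be told apart.

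The sodium pump is an enzyme of a catalytic subunit, which splits ATP and moves sodium out of and potassium into the cell, and a glycosylated β subunit, which the enzyme needs to fold and reach the membrane. Small single-span FXYD proteins bind the pump and tune its affinity for ions. In astrocytes the pump takes up the potassium that active neurons release, and the sodium gradient it builds drives the uptake of glutamate and the work of cotransporters. Slc4a4 encodes NBCe1, which carries sodium with bicarbonate and sets pH, and Slc12a2 encodes NKCC1, which carries sodium, potassium and chloride together into the cell.

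Library totals lay between 27904126 and 37997368 counts, and 3 counts in a library, taken as the floor, corresponded to between 0.0786 and 0.117 CPM (counts per 1000000, scaled by TMM). All levels below are in CPM unless stated otherwise, all errors are SD over 4 libraries, and intervals and floors that rest on counts alone cover counting error only. Tests between groups used the quasi-likelihood method of edgeR (two-sided, 1 fit of the 6 groups), with p-values adjusted over all 19691 genes, and SE stands for the standard error of a log2 difference. Replicates were separate isolations or cultures of different passages, and the stem cell groups go back to 1 line. The astrocyte label was checked with 8 markers (Aqp4, Aldh1l1, Slc1a2, Slc1a3, Aldoc, Gja1, Gjb6, Gfap), which were all above the floor in all libraries. Their summed level was between 13960 and 22220 in directly isolated cells, between 6246 and 7301 in neoAC CellC and between 54050 and 58500 in AGES, but between 772.6 and 1216 in AdAC CellC, below the 1868 to 2398 in NSC. Within this sum Slc1a3 (163 to 286 against 1299 to 1615 CPM), Slc1a2 and Aldoc were lower in AdAC CellC than in NSC. Aldh1l1 (129 to 232 against 9.30 to 30.3 CPM), Gja1 (193 to 226 against 13.5 to 16.8 CPM), Aqp4 and Gfap were higher, and Gjb6 overlapped. Gfap alone had a mean of 50503 CPM in AGES, and the 7 markers without it summed to between 5134 and 5704 there and between 1839 and 2365 in NSC. Of the 8 markers, 4 (Aldh1l1, Slc1a3, Gja1 and Gjb6) had a lower mean in AGES than in NSC, with Aldh1l1 at 14.98 ± 4.34 CPM in AGES and 18.8 ± 9.40 CPM in NSC. In the adult groups, 6 oligodendrocyte markers (Mbp, Mog, Mag, Mobp, Cldn11, Cnp), all above the floor in every group, summed to between 12870 and 13670 in AdAC direct and between 3260 and 8248 in AdAC CellC, against 8.70 to 360.8 in the other groups. In such bulk samples, fewer cells of a type and less RNA per cell cannot be told apart.

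The start sites of these genes differ in kind, and 4 windows are shown because the gene counts sum over all starts of a gene. Each is the 250 bases upstream of a RefSeq start (GRCm38.p6), printed 5′ to 3′ on the strand of the gene in lower case, with CG dinucleotides in capitals. They are the windows of Atp1b1 (chr1:164458356-164458605, minus strand), of one start of Atp1b3 (chr9:96364432-96364681, minus strand), of Fxyd1 (chr7:31054854-31055103, minus strand) and of the internal start of Slc4a4 (chr5:89027716-89027965, plus strand). The Fxyd1 window lies inside the gene as Gencode places it (chr7:31051678-31057199), and the bases right after it matched none of its Gencode transcripts.
Atp1b1: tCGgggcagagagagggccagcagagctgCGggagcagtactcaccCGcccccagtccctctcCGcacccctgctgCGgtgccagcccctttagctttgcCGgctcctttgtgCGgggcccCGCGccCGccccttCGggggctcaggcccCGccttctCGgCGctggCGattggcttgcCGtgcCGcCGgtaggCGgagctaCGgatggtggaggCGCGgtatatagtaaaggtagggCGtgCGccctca
Atp1b3: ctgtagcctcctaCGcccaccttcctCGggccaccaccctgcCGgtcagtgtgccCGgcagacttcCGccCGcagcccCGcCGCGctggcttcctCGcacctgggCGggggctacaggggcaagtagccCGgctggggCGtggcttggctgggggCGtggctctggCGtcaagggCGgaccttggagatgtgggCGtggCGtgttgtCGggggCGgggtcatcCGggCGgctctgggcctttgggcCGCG
Fxyd1: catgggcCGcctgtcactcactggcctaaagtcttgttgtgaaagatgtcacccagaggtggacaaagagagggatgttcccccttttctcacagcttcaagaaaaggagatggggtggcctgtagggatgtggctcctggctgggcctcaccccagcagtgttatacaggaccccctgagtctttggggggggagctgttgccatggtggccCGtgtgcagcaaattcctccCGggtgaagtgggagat
Slc4a4: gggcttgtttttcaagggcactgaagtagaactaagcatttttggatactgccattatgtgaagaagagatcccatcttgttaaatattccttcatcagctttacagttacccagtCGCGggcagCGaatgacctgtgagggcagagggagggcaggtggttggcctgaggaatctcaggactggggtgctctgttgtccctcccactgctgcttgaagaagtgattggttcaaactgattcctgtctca
The windows of Atp1b1 and Atp1b3 each held 24 CG dinucleotides, and 88% of the 32851 mouse promoter windows of this length held fewer. The windows of Fxyd1 and of the internal start of Slc4a4 held 3 each, with 29% of windows holding fewer, and the median over all windows was 6. The other start of Slc4a4 (chr5:88887010-88887259, plus strand) had 44 CG dinucleotides, more than 99.5% of windows, and all of it lies in a Gencode exon. A further start of Atp1b3 (chr9:96363716-96363965, minus strand) had 35, more than 97% of windows, with 1 GGCGCC and without GGGCGG. The motif GGGCGG, searched on both strands and present in 32.7% of all windows, occurred 2 times upstream of Atp1b1 and 5 times in the printed window of Atp1b3 and was not found in the windows of Fxyd1 and the internal Slc4a4 start. TTGGC, present in 41.5% of windows on either strand, occurred 1 time in each printed window except that of Fxyd1, and CANNTG, present in 66.2%, occurred 1 time each upstream of Atp1b3 and of the internal Slc4a4 start. TATAAA, present in 12.4%, and GGCGCC, present in 9.59%, were in none of the 4.

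Atp1b2, the adhesion-linked β subunit of glia (chr11:69599736-69605942 in GRCm38), was high in directly isolated astrocytes at both ages. It measured 1808, 2006, 1713 and 1911 CPM in the libraries of neoAC direct and 2369, 2233, 2132 and 2208 CPM in those of AdAC direct. In culture it stayed at 1080, 1214, 1382 and 1297 CPM in neoAC CellC but stood at 96.8, 126.9, 134.1 and 134.6 CPM in AdAC CellC. The cultured adult libraries thus lay below every library of the other primary groups. AGES had 814, 862, 882 and 1087 CPM and NSC 51.5, 66.2, 34.5 and 43.3 CPM, so the order from high to low was AdAC direct, neoAC direct, neoAC CellC, AGES, AdAC CellC and NSC. Of the 5 steps between neighbours in this order, the first (AdAC direct against neoAC direct, log2 difference 0.27, SE 0.14, 95% interval −0.01 to 0.54) did not pass (edgeR adjusted p = 0.0927), although the libraries did not overlap, and the other 4 did.

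Atp1b1, the β subunit found in most tissues (chr1:164437109-164458355), was close in 4 of the groups. It measured 299, 345, 331 and 311 CPM in neoAC CellC, 296, 296, 310 and 313 CPM in neoAC direct, 285, 272, 323 and 185 CPM in AGES and 243, 282, 241 and 232 CPM in AdAC CellC. These ranges overlapped between neighbours, and no neighbouring pair among them passed the test (lowest edgeR adjusted p of the 3 steps = 0.133). The wider step from neoAC direct to AdAC CellC did (log2 difference 0.28, SE 0.11, edgeR adjusted p = 0.0297). AdAC direct was lower, at 109, 124, 118 and 108 CPM, and NSC lower still, at 16.6, 13.5, 12.96 and 13.1 CPM. Exons of Atp1b1 share 575 bases, 18.7% of their length, with Nme7 on the opposite strand, and the counting options the study lists hold none for the strand. Nme7 was counted at 17.9 to 42.2 CPM in the group means, lowest in AdAC CellC and highest in neoAC direct.

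Atp1b3 (chr9:96332655-96364442), the third β subunit, varied least of the 7 genes, with a log2 range of 1.61 over the group means, and 32.2% of the tested genes had a smaller range. Its libraries held 295, 283, 306 and 343 CPM in AdAC direct and 163, 186, 164 and 172 CPM in AdAC CellC. NSC, at 166, 183, 171 and 149 CPM, overlapped AdAC CellC and did not differ beyond the spread (log2 difference 0.04, SE 0.09, edgeR adjusted p = 0.713). AGES followed with 125, 112, 147 and 134 CPM, then neoAC CellC with 104.8, 108, 103 and 112 CPM and neoAC direct with 95.1, 97.4, 95.4 and 114 CPM. The 2 neonatal groups overlapped, and their difference did not pass (edgeR adjusted p = 0.364). Atp1b3 was thus the only one of the 3 β subunits that was not lowest in NSC in the group means.

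**Figure D1:**
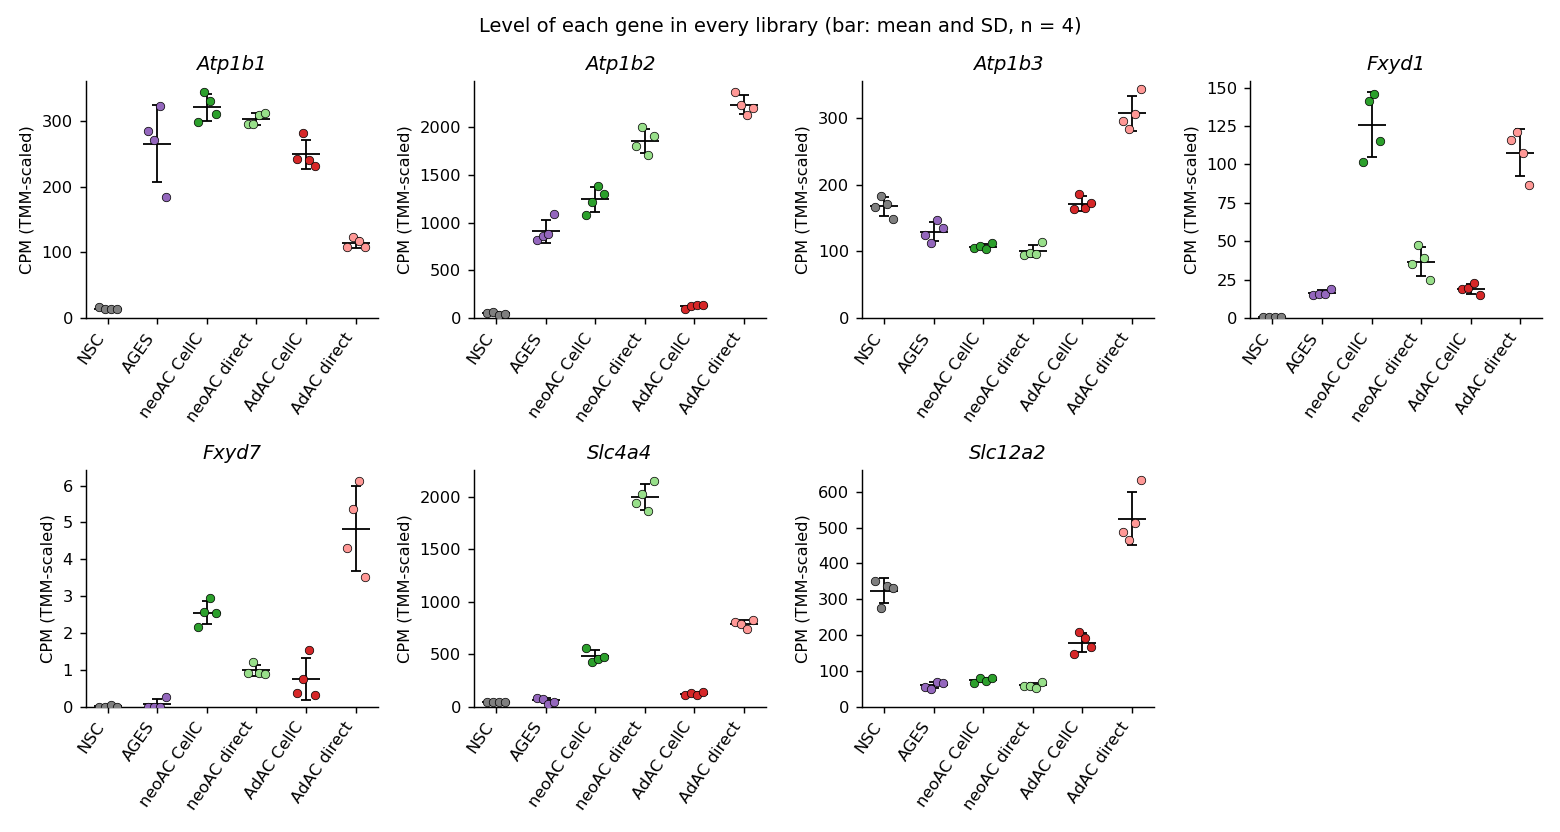
TMM-scaled CPM of each of the 7 genes (y axis, linear from 0, a scale of its own in each panel) in the 24 libraries by group (x axis), with points for libraries and bars for the mean and SD of 4. Atp1b2 in AdAC CellC lies between 96.8 and 134.6 CPM, below all libraries of the other primary groups, Slc4a4 is highest in neoAC direct and Slc12a2 is highest in AdAC direct.

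Read per kb of exon, so that the genes can be set beside each other, the 3 β subunits took different shares of their summed level in each kind of cell. Atp1b3 made up 81.0% ± 2.81 of the sum in NSC, where Atp1b2 made up 13.7% ± 2.79. In AGES the order was turned, with 61.2% ± 5.87 for Atp1b2, 23.9% ± 5.51 for Atp1b1 and 14.9% ± 1.05 for Atp1b3. Atp1b2 also led in neoAC CellC (67.0% ± 2.02), neoAC direct (76.4% ± 1.41) and AdAC direct (76.8% ± 1.52). AdAC CellC stood apart, with 44.3% ± 2.04 for Atp1b1, 39.2% ± 0.839 for Atp1b3 and 16.5% ± 2.18 for Atp1b2. Each share was compared in the 7 comparisons by permuting its 4 and 4 libraries exactly (two-sided), where p cannot go below 0.02857. The 3 shares of a library make up the whole, so the tests within a comparison depend on each other. The exons that Atp1b1 shares with Nme7 leave its level, and with it all 3 shares, uncertain. Of the 21 tests, 18 reached this value (exact permutation test, adjusted p = 0.0333 over the 21). The other 3 were the Atp1b1 share between AGES and neoAC CellC, which differed by 0.803 percentage points (exact permutation test, adjusted p = 0.857), the Atp1b2 share in the same comparison (−5.77 points, adjusted p = 0.158) and the Atp1b2 share between neoAC direct and AdAC direct (−0.396 points, adjusted p = 0.75).

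**Figure D2:**
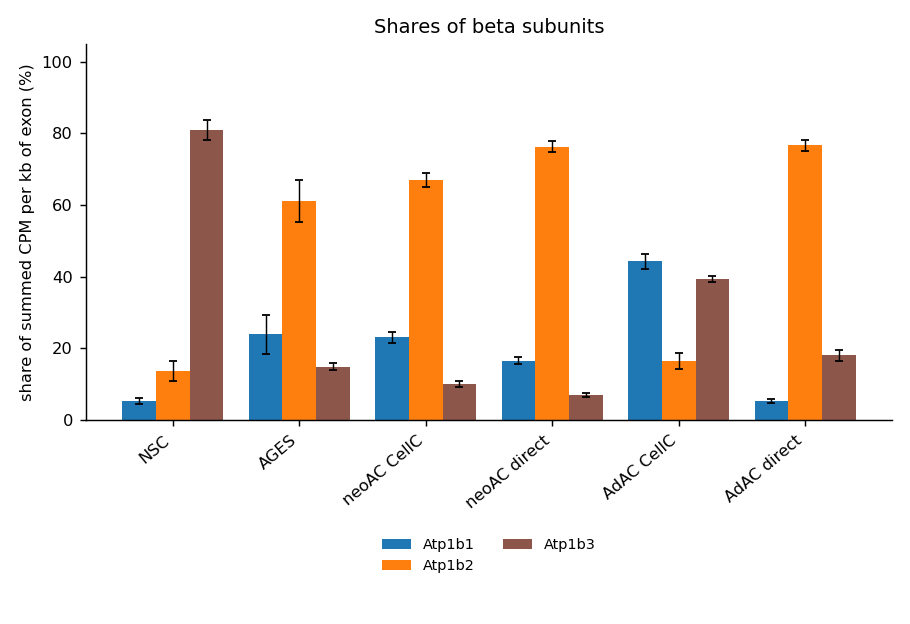
Share of each of the 3 β subunits in their summed CPM per kb of exon (y axis, percent) in the 6 groups (x axis), as bars for the mean with SD over 4 libraries. Atp1b3 leads in NSC at 81.0%, Atp1b2 leads in AGES, neoAC CellC, neoAC direct and AdAC direct, and Atp1b1 has its highest share, 44.3%, in AdAC CellC.

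Among the regulators, Fxyd1 (chr7:31051678-31057199), also called phospholemman, had 2 high groups. Its libraries held 101, 141, 146 and 116 CPM in neoAC CellC and 116, 121, 107 and 86.3 CPM in AdAC direct, and these groups overlapped and did not differ beyond the spread (edgeR adjusted p = 0.203). The opposite conditions were lower, with 35.3, 47.4, 39.4 and 25.0 CPM in neoAC direct and 18.7, 19.2, 22.8 and 15.1 CPM in AdAC CellC. AGES had 14.9, 15.7, 15.4 and 19.1 CPM, overlapping AdAC CellC, and NSC had 0.489, 0.850, 0.414 and 0.769 CPM, all above the floor. Fxyd1 had the widest log2 range over the groups among the 6 genes that were above the floor in all groups, 7.55, and 93.8% of the tested genes had a smaller one. Gencode lists 17 transcripts for it, whose joined exons span 2186 bases while the longest transcript has 668, so its level per kb depends on the transcript used.

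Fxyd7 (chr7:31042513-31051467), a family member found mainly in brain, lies next to Fxyd1 on the same strand and had the fewest counts of the 7 genes. It measured 4.29, 5.38, 6.12 and 3.53 CPM in AdAC direct and 2.15, 2.57, 2.94 and 2.55 CPM in neoAC CellC. These were again the 2 highest groups, here without overlap (log2 difference 0.92, SE 0.37, edgeR adjusted p = 0.0278). The libraries of neoAC direct held 0.910, 1.22, 0.917 and 0.898 CPM and those of AdAC CellC 0.368, 0.758, 1.54 and 0.310 CPM, which overlapped. NSC libraries had 0, 0, 1 and 0 counts, all at or under the floor, and against this floor the mean was at least 50.2-fold higher in AdAC direct, at least 26.5-fold higher in neoAC CellC, at least 10.3-fold higher in neoAC direct and at least 7.74-fold higher in AdAC CellC. AGES libraries had 0, 0, 0 and 8 counts, and no fold between AGES and NSC is given. Fxyd5, the next gene on that strand, known as dysadherin, had its highest group mean in AdAC CellC, at 17.9 ± 4.39 CPM, where Fxyd1 and Fxyd7 were low.

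Slc4a4, the sodium bicarbonate cotransporter (chr5:88886818-89239653), was highest in directly isolated neonatal cells. It measured 1939, 2027, 1862 and 2153 CPM in neoAC direct, 804, 790, 743 and 826 CPM in AdAC direct, 561, 430, 458 and 477 CPM in neoAC CellC and 112, 126, 112 and 140 CPM in AdAC CellC. None of these 4 groups overlapped another, and each step between neighbours passed the test. AGES had 86.1, 72.7, 30.02 and 46.9 CPM, a coefficient of variation of 42.8%, the widest relative spread of Slc4a4 among the 6 groups. NSC had 47.6, 46.4, 44.2 and 48.2 CPM, within the range of AGES.

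Slc12a2, the sodium-potassium-chloride cotransporter (chr18:57878678-57946821), had a different order, with AdAC direct first and NSC second. AdAC direct held 488, 465, 514 and 632 CPM and NSC 352, 274, 338 and 331 CPM. AdAC CellC followed with 148, 208, 190 and 168 CPM. The 3 lowest groups were close together, at 66.0, 79.6, 72.7 and 79.7 CPM in neoAC CellC, 54.3, 50.5, 69.4 and 67.0 CPM in AGES and 58.1, 56.5, 51.8 and 70.1 CPM in neoAC direct. AGES and neoAC direct did not differ beyond the spread (log2 difference 0.03, SE 0.12, edgeR adjusted p = 0.845). Both of the genes that were higher in NSC than in AGES, Slc12a2 and Atp1b3, had their highest mean in AdAC direct. So did Fxyd7 and Atp1b2, and Atp1b2 was higher in AGES than in NSC.

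The first comparison sets cultured against directly isolated adult astrocytes. All 7 genes were called, where 78% of all tested genes were: 1 rose, where 38.8% of all genes rose, and 6 fell, where 39.2% fell. Past a 2-fold change there were 6 of 7, against 48.7% of all genes. Atp1b2 fell by 4.18 on the log2 scale (SE 0.16, edgeR adjusted p = 1.36e-17), an 18.2-fold lower level in culture. Slc4a4 fell by 2.69 (SE 0.19), Fxyd7 fell by 2.67 (SE 0.41), Fxyd1 fell by 2.50 (SE 0.17), Slc12a2 fell by 1.56 (SE 0.13) and Atp1b3 fell by 0.84 (SE 0.09), with a highest edgeR adjusted p among them of 1.99e-06. Atp1b1 alone among them rose, by 1.12 (SE 0.12, edgeR adjusted p = 2.32e-09). In none of the 7 did the libraries of the 2 groups overlap, which held for 76.3% of all genes, and the median log2 fold change of the 7 was −2.50 beside 0 for all genes. The summed astrocyte markers fell too, from between 13960 and 14530 to between 772.6 and 1216 CPM. Within this sum Gfap did not fall, at 161 to 175 CPM in AdAC direct and 126 to 260 CPM in AdAC CellC. Aldh1l1 fell from between 238 and 293 to between 129 and 232 CPM. The oligodendrocyte markers fell from between 12870 and 13670 to between 3260 and 8248 CPM. Ependymal markers fell from between 1156 and 1326 to between 221 and 311 CPM and mural markers from between 364 and 391 to between 116 and 160 CPM, while fibroblast markers (Col1a1, Col1a2, Dcn, Lum) were at between 75.3 and 92.3 CPM in AdAC direct and between 995 and 1425 CPM in AdAC CellC. The part of these cells in the result was not tested.

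In neonatal astrocytes, Fxyd1, Fxyd7 and Slc12a2 rose in culture and Slc4a4 and Atp1b2 fell. Of the 7, 5 were called, beside 65.7% of all tested genes, with 3 higher in culture (34.4% of all genes) and 2 lower (31.3%), and 3 were past 2-fold, beside 32.6% of all genes. The libraries did not overlap in 4 of the 7, which held for 58% of all genes. Fxyd1 rose by 1.78 on the log2 scale (SE 0.17, edgeR adjusted p = 1.17e-09) and Fxyd7 rose by 1.36 (SE 0.40, edgeR adjusted p = 0.00447), while Slc4a4 fell by 2.05 (SE 0.19, edgeR adjusted p = 1.11e-09). Atp1b2 fell by 0.58 (SE 0.14, edgeR adjusted p = 0.000799). Slc12a2 was higher by 0.33 (SE 0.12, edgeR adjusted p = 0.0211), with overlapping libraries, and this call was lost without neoAC CellC replicate 2 or 4 or neoAC direct replicate 3 (highest of these edgeR adjusted p-values 0.0742). Atp1b1 (0.08, 95% interval −0.14 to 0.30) and Atp1b3 (0.09, 95% interval −0.08 to 0.26) did not pass (edgeR adjusted p = 0.538 and 0.364). The median over the 7 genes was 0.09, beside 0.04 for all genes. Summed markers moved too, from directly isolated to cultured cells: astrocyte from between 19420 and 22220 to between 6246 and 7301 CPM, endothelial from between 57.8 and 239 to between 3.66 and 5.95 CPM, mural from between 263 and 558 to between 47.8 and 60.3 CPM and ependymal from between 132 and 194 to between 1337 and 1698 CPM. Within the astrocyte sum Gfap went the other way, from between 1546 and 1867 to between 2576 and 3143 CPM. The part of these cells in the result was not tested.

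The effects at the 2 ages were set against each other by the interaction of culture and age, the culture effect in neonatal cells minus that in adult cells. This test called all 7 genes, beside 68.6% of all tested genes, 6 with a positive difference (33.2% of all genes) and 1 with a negative one (35.4%), and 5 of them past 2-fold, beside 45.1%. The difference was 4.28 for Fxyd1 (SE 0.24, edgeR adjusted p = 8.26e-14) and 4.03 for Fxyd7 (SE 0.57, edgeR adjusted p = 9.57e-07), which rose in neonatal and fell in adult cultures. It was 3.60 for Atp1b2 (SE 0.20, edgeR adjusted p = 6.55e-14), which fell at both ages but less in neonatal cells, and 1.89 for Slc12a2 (SE 0.18, edgeR adjusted p = 7.55e-10). The other β subunits differed in opposite directions, by −1.04 for Atp1b1 (SE 0.16) and 0.93 for Atp1b3 (SE 0.12), with a higher edgeR adjusted p of 3.36e-06. Slc4a4 differed least, by 0.64 (SE 0.26, edgeR adjusted p = 0.0325), and lost this call when any one of 6 libraries was left out, namely neoAC CellC 1, neoAC direct 1 or 3, AdAC CellC 1 or 3 or AdAC direct 4, with a highest edgeR adjusted p of 0.0791. Its own change in culture stayed between −2.13 and −2.00 in neonatal and between −2.75 and −2.63 in adult cells when single libraries were left out.

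**Figure D3:**
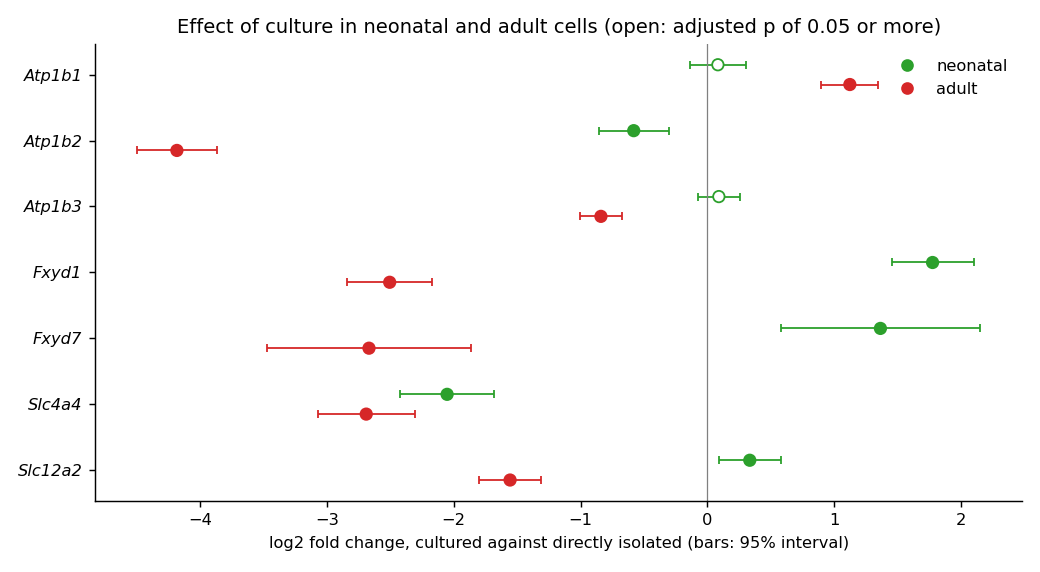
Log2 fold change in cultured against directly isolated astrocytes (x axis) of each of the 7 genes (y axis), neonatal in green and adult in red, with bars for the 95% interval and open points for an edgeR adjusted p of 0.05 or more. Fxyd1 and Fxyd7 lie right of 0 in neonatal and left of 0 in adult cells, and the intervals of Atp1b2 lie far apart, around −0.58 and −4.18.

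Between NSC and AGES, Atp1b1, Atp1b2 and Fxyd1 differed more than Atp1b3, Slc4a4 and Slc12a2. In AGES against NSC, 5 of the 6 genes other than Fxyd7 were called, beside 65.7% of all tested genes, 3 higher (31.7% of all genes) and 2 lower (34%), and 4 were past 2-fold, beside 38% of all genes. In 5 the libraries did not overlap, which held for 58.3% of all genes. Atp1b1 rose by 4.24 in log2 (SE 0.13, edgeR adjusted p = 2.36e-19), Atp1b2 by 4.22 (SE 0.16, edgeR adjusted p = 1.17e-17) and Fxyd1 by 4.68 (SE 0.24, edgeR adjusted p = 9.98e-15). Slc12a2 fell by 2.43 (SE 0.13, edgeR adjusted p = 1.04e-14), and Atp1b3 fell by 0.37 (SE 0.09, edgeR adjusted p = 0.000487). Slc4a4 did not pass, with a difference of 0.34 (SE 0.19, 95% interval −0.03 to 0.70, edgeR adjusted p = 0.116). Without AGES replicate 3, which had the lowest level of Slc4a4 in that group, the difference was 0.56 and passed (edgeR adjusted p = 0.000768). The median over the 6 genes other than Fxyd7 was 2.28, beside 0 for all genes.

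Against cultured neonatal astrocytes, AGES had 5 genes lower (40.5% of all genes) and 1 higher (34.1%) among the 6 other than Fxyd7, all of them called, beside 74.6% of all tested genes, and 2 past 2-fold, beside 43.6%. In 3 of the 6 the libraries did not overlap, beside 69.6% of all genes. Fxyd7 is left out of these counts because it passed the filter only through the primary groups. Slc4a4 was lower in AGES, with a log2 difference of −3.03 (SE 0.20, edgeR adjusted p = 8.51e-13), as was Fxyd1, with −2.95 (SE 0.17, edgeR adjusted p = 1.02e-13), and Fxyd7 was near the floor in AGES. Atp1b2, at 911 ± 120.5 CPM (AGES) and 1243 ± 129 CPM (neoAC CellC), differed by −0.45 (SE 0.14, edgeR adjusted p = 0.00594), with libraries that overlapped. The 3 other differences were small. Atp1b3 was higher in AGES by 0.28 (SE 0.09, edgeR adjusted p = 0.00546), but with scaling by library size only the difference was −0.03 (edgeR adjusted p = 0.762). Atp1b1 (−0.27, edgeR adjusted p = 0.033) and Slc12a2 (−0.31, edgeR adjusted p = 0.03) had overlapping libraries. Atp1b1 lost its call without AGES replicate 4 or neoAC CellC replicate 2 or 3 (highest edgeR adjusted p 0.181), and Slc12a2 without AGES replicate 1 or 2 or neoAC CellC replicate 2 or 4 (highest edgeR adjusted p 0.116).

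Against cultured adult astrocytes, 4 of the 6 genes other than Fxyd7 were called, beside 76.2% of all tested genes, with 1 higher (31% of all genes) and 3 lower in AGES (45.2%), and 3 were past 2-fold, beside 46.7%. In 4 of the 6 the libraries did not overlap, beside 73.1% of all genes. All tested genes had a median of −0.23 in log2 here, against which small differences are to be read. Atp1b2 was higher in AGES by 2.89 (SE 0.15, edgeR adjusted p = 3.84e-15), a 7.40-fold level. Slc12a2 was lower in AGES (log2 difference −1.57, SE 0.13, edgeR adjusted p = 2.57e-11), as was Slc4a4 (−1.06, SE 0.19, edgeR adjusted p = 1.73e-05). Atp1b3 was lower too (−0.40, SE 0.09, edgeR adjusted p = 0.000146), and Fxyd7 was near the floor in AGES. Fxyd1 (−0.22, 95% interval −0.55 to 0.11, edgeR adjusted p = 0.237) and Atp1b1 (0.09, 95% interval −0.13 to 0.31, edgeR adjusted p = 0.47) did not pass. Without AGES replicate 4, whose Atp1b1 level was the lowest of its group, the Atp1b1 difference was 0.23 and passed (edgeR adjusted p = 0.023).

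Age was compared in directly isolated and in cultured astrocytes. In directly isolated cells, 6 of the 7 genes were called, beside 71.4% of all tested genes, 2 higher (35% of all genes) and 4 lower (36.4%) in neonatal cells, and all 6 were past 2-fold, beside 39.1%. In none of the 7 did the libraries overlap, beside 64.9% of all genes. Atp1b1 was higher in neonatal cells by 1.41 (SE 0.12, edgeR adjusted p = 5.83e-11) and Slc4a4 by 1.34 (SE 0.19, edgeR adjusted p = 7.17e-07). Slc12a2 was lower in neonatal cells, with a log2 difference of −3.15 (SE 0.13, edgeR adjusted p = 1.54e-16), and so were Fxyd7 with −2.28 (SE 0.40, edgeR adjusted p = 1.70e-05), Atp1b3 with −1.61 (SE 0.09, edgeR adjusted p = 1.76e-14) and Fxyd1 with −1.55 (SE 0.16, edgeR adjusted p = 8.69e-09). Atp1b2, the antigen of the isolation, had −0.27 and did not pass, but passed with only these 2 groups in the fit (−0.24, edgeR adjusted p = 0.0113). Slc12a2, Atp1b3, Fxyd1 and Fxyd7 were higher in AdAC direct, and so were the oligodendrocyte markers. These markers summed to between 284 and 360.8 CPM in neoAC direct and between 12870 and 13670 CPM in AdAC direct. In NSC, where these markers summed to at most 14.03 CPM, Atp1b3 was at 167 ± 14.1 CPM, and in neoAC direct it was at 101 ± 9.16 CPM. The part of oligodendrocytes in the result was not tested.

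In cultured cells all 7 genes were called, beside 63.8% of all tested genes, 5 higher (28.5% of all genes) and 2 lower (35.2%) in neonatal cells, and 5 were past 2-fold, beside 29.8%. In none did the libraries overlap, beside 62.2% of all genes. Atp1b2 was higher in neoAC CellC by 3.34 (SE 0.15, edgeR adjusted p = 2.67e-15), a 10.1-fold level, and Fxyd1 by 2.73 (SE 0.17, edgeR adjusted p = 1.51e-12). Slc4a4 was higher by 1.97 (SE 0.19, edgeR adjusted p = 2.70e-09), Fxyd7 by 1.75 (SE 0.41, edgeR adjusted p = 0.000607) and Atp1b1 by 0.36 (SE 0.11, edgeR adjusted p = 0.00692). Slc12a2 (−1.26) and Atp1b3 (−0.68) were lower in neonatal cells, as they were in the directly isolated ones. Fxyd1 and Fxyd7 were thus higher in adult cells when directly isolated and higher in neonatal cells when cultured. The summed astrocyte markers were also higher in neoAC CellC, at 6246 to 7301 against 772.6 to 1216 CPM in AdAC CellC. The fibroblast sum was lower, at 296 to 477 against 995 to 1425 CPM, through Col1a1 and Col1a2. Lum went the other way, at 8.87 to 17.5 CPM in neoAC CellC against 2.06 to 2.67 CPM in AdAC CellC. Dcn was at 11.2 to 25.5 against 9.35 to 11.8 CPM. The part of these cells was not tested.

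**Figure D4:**
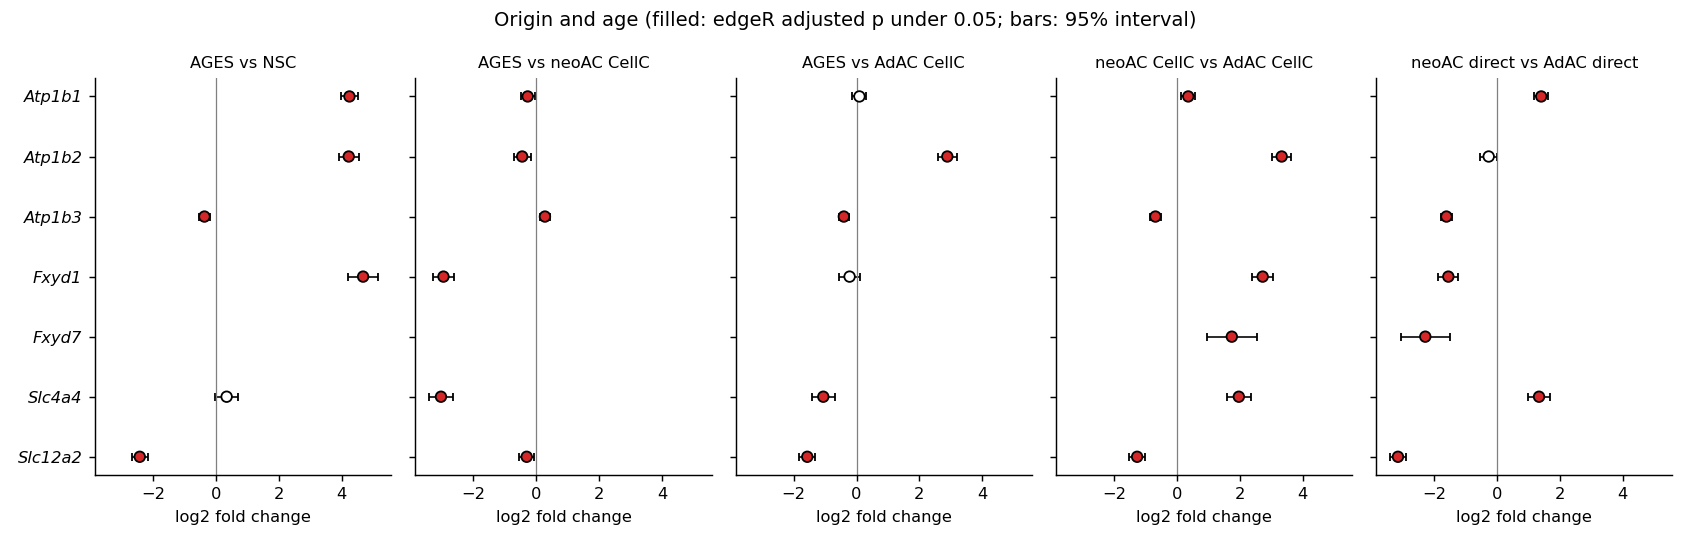
Log2 fold change (x axis, first group minus second) of each gene in 5 comparisons of origin and age, with bars for the 95% interval and filled points for an edgeR adjusted p under 0.05. Fxyd7 is not drawn against AGES or NSC, where it was at or near the floor. Slc12a2 and Atp1b3 lie left of 0 in both comparisons of neonatal with adult cells, and Fxyd1 changes side between them.

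Fxyd1 was also followed beside markers of ciliated cells of the ventricle wall, since these cells are in brain tissue too. The 4 ependymal markers Foxj1, Ccdc153, Tmem212 and Rarres2 summed to between 1337 and 1698 CPM in neoAC CellC and between 1156 and 1326 CPM in AdAC direct, the 2 groups with the highest Fxyd1. They summed to between 132 and 194 CPM in neoAC direct, between 221 and 311 CPM in AdAC CellC, between 56.3 and 84.2 CPM in AGES and between 14.9 and 24.04 CPM in NSC. Each of the 4 was highest in the same 2 groups, but their near-equal sums had unlike parts. Foxj1 was at 1108 to 1398 CPM in neoAC CellC and 396 to 438 CPM in AdAC direct. Ccdc153 (114 to 164 against 321 to 402 CPM), Tmem212 (18.9 to 27.7 against 134 to 151 CPM) and Rarres2 (96.2 to 143 against 286 to 346 CPM) went the other way. The 6 choroid plexus markers (Ttr, Kl, Folr1, Kcnj13, Clic6, Otx2) summed to between 470.6 and 1396 CPM in neoAC CellC and between 604.8 and 1253 CPM in neoAC direct. They summed to between 126.2 and 466.8 CPM in the adult groups and to at most 12.4 CPM in AGES and NSC. Most of the neonatal sums was Ttr, at 398 to 1267 CPM in neoAC CellC and 557 to 1194 CPM in neoAC direct, against 52.9 to 364 CPM in the adult groups. Folr1 and Clic6 went the other way between neoAC direct (6.49 to 10.55 and 14.2 to 21.4 CPM) and the adult groups (20.6 to 27.4 and 24.2 to 49.6 CPM). Most of the sum in AGES was Folr1, at 7.22 to 11.2 CPM. The part of ependymal or choroid plexus RNA in the levels of Fxyd1, Fxyd7 and Slc12a2 was not tested. In NSC, Slc12a2 was at 324 ± 34.2 CPM while the oligodendrocyte markers summed to at most 14.03 CPM.

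**Figure D5:**
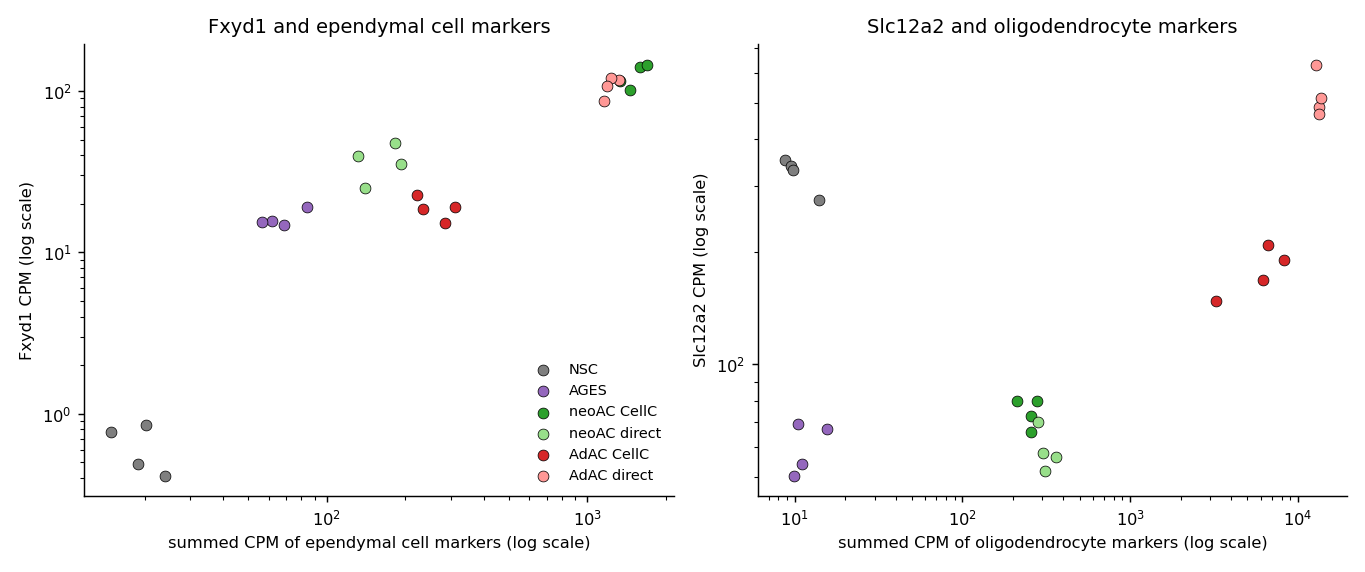
Fxyd1 against the summed ependymal markers (left) and Slc12a2 against the summed oligodendrocyte markers (right), both in CPM on log axes, with 1 point for each of the 24 libraries coloured by group. The libraries of neoAC CellC and AdAC direct lie together at the top right for Fxyd1, and those of NSC lie at the top left for Slc12a2.

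The other genes of these pathways, 44 listed of which 40 were tested, included further FXYD and NKAIN proteins, cation-chloride and bicarbonate transporters, their kinases, sodium exchangers and carbonic anhydrases. In cultured against directly isolated adult astrocytes, 15 were higher (38.8% of all genes) and 20 lower (39.2%), together 87.5% beside 78%. Car12, a carbonic anhydrase of the cell surface, rose by 3.88 on the log2 scale and Fxyd5 by 2.58, and Nkain4, a pump-interacting membrane protein, fell by 5.17 and the kinase Wnk2 fell by 3.21. In neonatal culture, 11 were higher (34.4% of all genes) and 18 lower (31.3%), together 72.5% beside 65.7%. Slc12a8 rose by 3.19 and Slc8a1, a sodium-calcium exchanger, by 1.64, and Car8, a carbonic anhydrase relative without catalytic activity, fell by 5.01 and the sodium-calcium exchanger Slc8a2 fell by 3.72 there. Of the 6 carbonic anhydrases, 4 fell and 2 rose in adult culture, where 39.2% of all genes fell and 38.8% rose. In neonatal culture 3 fell and 2 rose, where 31.3% of all genes fell and 34.4% rose.

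In AGES against NSC, 19 of the 40 were higher (31.7% of all genes) and 5 lower (34%), together 60% beside 65.7%. Some of the 40, such as Fxyd2, Slc12a3 and Slc12a8, were at or near the floor in NSC and passed the filter through other groups. A lower level of these genes in AGES could not come out. The sodium-calcium exchangers Slc8a1 and Slc8a3 rose by 6.78 and 4.70, and the cytosolic carbonic anhydrase Car2 fell by 1.77 and the bicarbonate transporter Slc4a7 fell by 1.57. Against AdAC CellC, AGES had 16 higher (31% of all genes) and 17 lower (45.2%), together 82.5% beside 76.2%. All 6 carbonic anhydrases were among the lower genes. Of these, Car4, Car8, Car12 and Car13 were at or near the floor in AGES and passed the filter only through primary groups. A lower level of them was thus bound to come out. Car2 (31.2 to 45.8 against 189 to 296 CPM) and Car14 (10.2 to 27.2 against 21.7 to 31.4 CPM) were above the floor. Fxyd6, another FXYD protein, was higher in AGES by 5.82 and the kinase Wnk2 by 3.49, and the bicarbonate transporter Slc4a10 (−8.13) and Car12 (−7.57) were lower. Against neoAC CellC, 14 were higher (34.1% of all genes) and 14 lower (40.5%), together 70% beside 74.6%. Slc8a3 (3.43) and Fxyd6 (3.09) led among the higher and Slc4a10 (−7.04) and Car12 (−6.97) among the lower genes. Slc4a10 and Car12 were at 0.0873 and 0.111 CPM in AGES, at the level of the floor, so their fitted fold changes depend on the estimate of the fit. Fxyd6 had its highest group mean in AGES, at 535 ± 141 CPM.

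In neonatal against adult astrocytes, 11 of the 40 were higher (35% of all genes) and 20 lower (36.4%) when directly isolated, together 77.5% beside 71.4%. Slc8a2 was higher by 5.92 and Fxyd6 by 4.92, and Car14, a carbonic anhydrase of the cell surface (−4.85), and Nkain1 (−2.65) were lower. Exons of Car14 share 17.5% of their length with Aph1a on the opposite strand. In culture, 13 were higher (28.5% of all genes) and 16 lower (35.2%), together 72.5% beside 63.8%. Nkain4 was higher in neoAC CellC by 3.95 and Fxyd6 by 2.73, and Fxyd5 (−3.49) and Car2 (−2.79) were lower. All genes named in these 3 paragraphs had an edgeR adjusted p under 0.05 in the comparison given.

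Likeness of pattern was measured as the root mean square difference between the log2 group means of 2 genes, each centred on its own mean over the 6 groups, among 10866 tested genes with a mean of at least 10 CPM. Nearest to Atp1b2 were Folh1 (0.54), Cadm2 (0.54) and S1pr1 (0.59), where the median over all candidates was 2.27, and nearest to Atp1b1 were Adgra1 (0.46), Trim12c (0.52) and Fgd4 (0.54), beside a median of 1.78. Atp1b3 was followed closely by Lrrc28 (0.11), Ubr2 (0.12) and Nbeal2 (0.12), beside a median of 0.82. S1pr1, a receptor for sphingosine-1-phosphate, had 947 ± 53.4 CPM in AdAC direct and 31.2 ± 4.01 CPM in AdAC CellC. The genes nearest to Fxyd1 were Drc3 (0.44), a part of the ciliary dynein regulatory complex, Lca5l (0.50) and Pltp (0.54), beside a median of 2.64. No likeness is given for Fxyd7, whose log2 means in NSC and AGES are set by the prior count. Drc3 had 99.9 ± 11.5 CPM in neoAC CellC, 126 ± 11.4 CPM in AdAC direct and 14.3 to 19.5 CPM in the means of AGES, neoAC direct and AdAC CellC. Slc4a4 was nearest to Kalrn (0.31), Abcd2 (0.39) and Lrrc4c (0.42), and Slc12a2 to Frmd4b (0.36), Usp31 (0.43) and Piga (0.44), beside medians of 2.18 and 1.38. Among the 6 genes other than Fxyd7, the closest pair was Atp1b3 and Slc12a2 (0.77) and the most distant was Fxyd1 and Slc12a2 (3.04).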

How the data were processed

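RNA-seq was done on 24 mouse libraries. The authors prepared stranded poly(A) libraries, sequenced paired 100-base reads, aligned them with STAR 2.7.3a to GRCm38, keeping reads with up to 20 alignments, and counted exons with featureCounts on a Gencode annotation. The deposited values are raw counts per gene, without normalization. The counting options the study lists name exons and gene identifiers and none for strand or pairs, and the program ignores strand unless told otherwise, so overlapping genes are uncertain. Gencode vM21 gave names and positions for 99.3% of the 49671 genes.

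Counts were filtered by filterByExpr (19691 genes), scaled by TMM and tested in 1 quasi-likelihood fit of 6 groups with edgeR 4.0.16 (robust, two-sided, R 4.3.3), with Benjamini-Hochberg adjustment per comparison and a threshold of 0.05. A second rule added an absolute log2 fold change over 1. Standard errors are the log2 fold change over the square root of F. Subunit shares used CPM per kb of joined exons and exact permutation tests in SciPy 1.17.1. Genes of the pathway were named when among the first 2 higher or lower by log2 fold change, past 2-fold and at 10 CPM or more where higher. DESeq2 1.42.0 and other alternatives are given in the closing section, and the tests were tried on simulated data. Replicates with the same number correlated at −0.095 to 0.106 in their deviations from the group means and were treated as unpaired. The 7 genes and all gene lists were chosen with earlier results of these data known. Promoter windows came from RefSeq (GRCm38.p6). Some genes of the pathway and 1 marker are not reported here, and lists, counts and sums were made without them.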

Additional observations from a re-analysis of the deposited data

Results flagged for a closer look

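All 7 genes were flagged because the effect of culture differed between neonatal and adult astrocytes by the test of the interaction (edgeR adjusted p of at most 0.0325). The difference of the log2 fold changes, neonatal minus adult, was 4.28 for Fxyd1, 4.03 for Fxyd7, 3.60 for Atp1b2, 1.89 for Slc12a2, 0.93 for Atp1b3, 0.64 for Slc4a4 and −1.04 for Atp1b1. The same test passed for 68.6% of all tested genes.

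In 5 of the 42 groups of 4 libraries that were checked, 1 library stood apart from the other 3 by a gap that took most of the range of the group, where chance flags about 1 in 20. For Fxyd7 in NSC and AGES this was bound to happen, since the other 3 libraries had 0 counts, and without these groups it was 3 of 40. Atp1b1 was at 16.6 CPM in NSC replicate 1, and Atp1b3 was at 114 CPM in neoAC direct replicate 4. Fxyd7 was at 0.0318 CPM in NSC replicate 3, which is 1 count, at 0.263 CPM in AGES replicate 4, which is 8 counts, and at 1.22 CPM in neoAC direct replicate 2.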

How the results depend on the processing

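Results were recomputed with the size factors of DESeq2, with library size only, without a filter, with genes held to 10 or more counts in all libraries, with the Wald test of DESeq2, with a fit of the 2 compared groups, and without single replicates. No called fold change of the 7 genes changed direction except that of Atp1b3 between AGES and neoAC CellC, which was −0.0297 with library size only (main value 0.28) and 0.07 in the strict filter (edgeR adjusted p = 0.449), and the cause was not tested. In the strict filter Fxyd7 was not tested, and fewer genes were called because fewer were tested: 9816 in adult culture, 8554 in neonatal culture, 9374 for AGES against AdAC CellC, 8766 for AGES against neoAC CellC, 8068 for neoAC CellC against AdAC CellC and 9181 for the directly isolated groups. Library size only brought Atp1b1 (0.31) and Atp1b3 (0.32) in neonatal culture past the threshold. It did the same for Fxyd1 in AGES against AdAC CellC (−0.44) and Atp1b2 in neoAC direct against AdAC direct (−0.33). Atp1b3 in neonatal culture also passed in the strict filter (0.196, edgeR adjusted p = 0.0432). Slc4a4 in AGES against NSC passed with DESeq2 size factors (0.43, edgeR adjusted p = 0.0487), in the strict filter (0.45, edgeR adjusted p = 0.0325) and with the DESeq2 Wald test (0.43, DESeq2 adjusted p = 0.0474). Calls were lost without a filter for Slc12a2 in neonatal culture (edgeR adjusted p = 0.0735), Slc4a4 in the interaction (0.06), and Atp1b1 (0.0734) and Slc12a2 (0.074) in AGES against neoAC CellC, and in the fit of the compared groups for this Atp1b1 difference (0.0704). Leaving out single replicates lost 16 calls and gained 2 of the member fold changes, those named beside the results. Replicate numbers did not pair the samples, and with a replicate block of the number the genes called were 15031 in adult culture, 11770 in neonatal culture, 11122 for AGES against NSC, 13842 for AGES against AdAC CellC, 12909 for AGES against neoAC CellC, 12304 for neoAC CellC against AdAC CellC and 13803 for the directly isolated groups. At most 2 of 4 samples correlated best with their own number.

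For the subunit shares, 3 libraries against 4 cannot give p below 0.0571 in the exact permutation test, so the loss of a call says nothing of stability. Without single replicates the differences in percentage points, for Atp1b1, Atp1b2 and Atp1b3 in turn, were 17.4 to 21.3, 44.75 to 49.1 and −66.8 to −64.8 for AGES minus NSC, and −21.6 to −17.7, 41.98 to 46.4 and −24.8 to −23.9 for AGES minus AdAC CellC. They were 5.97 to 6.95, −10.1 to −8.73 and 2.56 to 3.23 for neoAC CellC minus neoAC direct, −22.05 to −20.6, 49.7 to 51.1 and −29.65 to −28.95 for neoAC CellC minus AdAC CellC, and 38.4 to 39.9, −60.9 to −59.4 and 20.8 to 21.9 for AdAC CellC minus AdAC direct. For AGES minus neoAC CellC the Atp1b3 share gave 4.56 to 5.40, and for neoAC direct minus AdAC direct the Atp1b1 share gave 10.9 to 11.8 and the Atp1b3 share −11.4 to −10.3. Depth limits Fxyd7, which was at or under 3 counts in all NSC and 3 of 4 AGES libraries.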
